A study of Homo sapiens with 24 samples.

Results

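The short arms of the 5 acrocentric human chromosomes, 13, 14, 15, 21 and 22, and the first stretch of their long arms were examined for 8-oxo-7,8-dihydroguanine (OG) in HAP1 cells. The members were the 1 kb bins of the table that began below 19.5 Mb on chromosome 13, 20 Mb on chromosome 14, 23 Mb on chromosome 15, 14 Mb on chromosome 21 and 17 Mb on chromosome 22 (GRCh38) and that were not 0 in every column. They were 6224 of the 2835235 bins in the table, with 1421 on chromosome 13, 299 on chromosome 14, 630 on chromosome 15, 1810 on chromosome 21 and 2064 on chromosome 22. A further 16048 bins on chromosome 13, 148 on chromosome 21 and 10509 on chromosome 22 lay below the same limits and were 0 in all 12 columns. The first bins with a value started at 15999001 on chromosome 13, 18671001 on chromosome 14, 17035001 on chromosome 15, 8680001 on chromosome 21 and 10509001 on chromosome 22. Nothing before these starts was measured, and members were not split by arm. The values of a segment therefore do not stand for its short arm.

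OG is the common oxidation product of guanine and pairs with adenine as well as cytosine. OGG1 is the glycosylase that removes OG opposite cytosine, and MUTYH removes the adenine that was inserted opposite OG. The short arms of the acrocentric chromosomes carry the tandem ribosomal DNA arrays that organise the nucleolus, flanked by satellite repeats and large segmental duplications shared between chromosomes, so many short reads from them have several equally good positions in the assembly.

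OG-seq biotinylates OG in isolated DNA, pulls the tagged fragments down and sequences them beside untreated input DNA of the same cells. The cells were HAP1, a near-haploid human line, of 4 genotypes: WT, MUTYH-/, OGG1-/ and DKO, which lacked both enzymes. Each genotype was represented by 2 clones in 3 independent experiments, both DKO clones had been made from a single OGG1-/ clone, and the table held 3 columns per genotype that no label tied to a clone. The p-values therefore measured only the spread between these columns, which may be technical, and the genotypes were not checked against the OGG1 or MUTYH loci here. The deposited value of a bin was its OG reads minus scaled input reads, a score that falls below 0 where scaled input is the larger. Both read counts could be recovered from the score in 100% of bins, so that each column held between 59605795 and 113916768 reads from the pull-down and between 78621690 and 101609126 from input, or 27.7 to 35.8 input reads per bin. The relative OG value used throughout is the mean score over a set of bins divided by the column's mean over all bins, so that 1 is the genome's own level.

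The reference sequence of the members differed from that of other bins mainly in how often it recurred. The median member had 30.6% of its sampled 31-base words present once in the genome, against 95.9% for sampled bins elsewhere. The median was lowest on chromosome 22, at 18.4%, followed by 28.6% on chromosome 21, 36.7% on chromosome 13, 40.8% on chromosome 15 and 71.4% on chromosome 14. GC content was close to the rest of the genome, with means of 40.4% in the members and 40.9% elsewhere. The potential G-quadruplex motif, 4 runs of at least 3 G with loops of 1 to 7 bases on either strand, occurred in 8.39% of members and in 9.69% of all bins. The core of the CENP-B box, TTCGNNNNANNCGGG searched on both strands, is the binding site of the centromere protein CENP-B in alpha satellite DNA. It was found in 82 members (1.32%) and in 0.0566% of all bins.

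These 3 stretches of the GRCh38 forward strand are shown as examples, from the highest bins of chromosomes 21 and 22 and from alpha satellite. The first opens the member with the highest value of all, chr21:8988001-8988240, with the G4 motif in capitals.
Highest chromosome 21 bin: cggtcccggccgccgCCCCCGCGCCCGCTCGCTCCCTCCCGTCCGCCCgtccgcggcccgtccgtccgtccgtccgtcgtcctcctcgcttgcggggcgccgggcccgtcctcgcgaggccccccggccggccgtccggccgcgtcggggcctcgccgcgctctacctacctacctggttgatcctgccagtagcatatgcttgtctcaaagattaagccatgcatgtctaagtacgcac
The second is from the highest bin of chromosome 22, chr22:15854013-15854252, inside the pseudogenes NBEAP3 and TOMM40P2, again with the G4 motif in capitals.
Highest chromosome 22 bin: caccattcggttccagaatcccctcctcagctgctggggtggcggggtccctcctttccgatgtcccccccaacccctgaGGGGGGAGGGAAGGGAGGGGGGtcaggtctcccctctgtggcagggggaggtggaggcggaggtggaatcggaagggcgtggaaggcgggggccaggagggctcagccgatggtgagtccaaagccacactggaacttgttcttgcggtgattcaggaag
The third, chr22:16020401-16020700, is from a bin that held 4 CENP-B box cores spaced 170 to 174 bases apart, the period of alpha satellite, with 2 of the cores in capitals.
Alpha satellite of chromosome 22: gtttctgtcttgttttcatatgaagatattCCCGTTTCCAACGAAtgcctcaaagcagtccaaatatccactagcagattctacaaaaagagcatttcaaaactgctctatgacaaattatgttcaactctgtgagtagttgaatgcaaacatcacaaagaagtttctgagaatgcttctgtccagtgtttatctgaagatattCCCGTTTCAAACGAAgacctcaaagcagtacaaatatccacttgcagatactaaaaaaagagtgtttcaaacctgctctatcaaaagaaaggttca
The stretches with the G4 motif were GC-rich, at 72.9% and 65.4%, and the alpha satellite was AT-rich, at 36.3% GC.

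The relative OG value was above the genome's level on 4 of the 5 segments. Over the 12 columns it averaged 1.45 ± 0.106 (SD, n = 12) on chromosome 21, 1.19 ± 0.135 on chromosome 14, 1.14 ± 0.102 on chromosome 22, 1.09 ± 0.0684 on chromosome 15 and 1.02 ± 0.0807 on chromosome 13. Chromosome 21 was above the rest of the genome in 12 of 12 columns, with values from 1.23 to 1.62. Chromosomes 14 and 22 were above it in 11 of 12 columns and chromosome 15 in 10 of 12. An exact sign-flip permutation test over the 12 columns, two-sided and adjusted over the 5 segments by the Benjamini-Hochberg method, gave p = 0.0024 for each of these 4 and p = 0.32 for chromosome 13, which was above the rest in 6 of 12 columns. With medians over bins in place of means chromosome 22 was at -0.0016 against the rest and above it in 6 of 12 columns (adjusted p = 0.97, exact permutation test), which ended its call. For all members together the value was 1.20 and the unadjusted p of the same exact test was 0.00049, the smallest it can give.

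The input libraries were raised over the same segments. Relative to the genome, input averaged 1.57 on chromosome 14, 1.44 on chromosome 21, 1.09 on chromosome 22, 1.04 on chromosome 15 and 0.98 on chromosome 13. The number of OG reads per input read, on the log2 scale and with the genome's ratio at 0, was 0.0038 on chromosome 21, 0.016 on chromosome 13, 0.019 on chromosome 15, 0.020 on chromosome 22 and -0.10 on chromosome 14. On this scale none of the 4 segments passed the test above the genome. Chromosome 14 was below it in 12 of 12 columns (adjusted p = 0.0024, exact sign-flip permutation test), which turned its direction. The adjusted p of the same exact permutation test was 0.56 for chromosome 21, 0.15 for chromosome 22, 0.074 for chromosome 15 and 0.14 for chromosome 13. Each bin was also set against bins of its own GC content, which does not adjust for the raised input. The excess in relative OG value was then 0.506 on chromosome 21, 0.409 on chromosome 14 and 0.174 on chromosome 22. Without that matching it was 0.447, 0.188 and 0.140. The excess of chromosome 15 shrank to 0.022 (adjusted p = 0.34, exact permutation test).

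**Figure D1:**
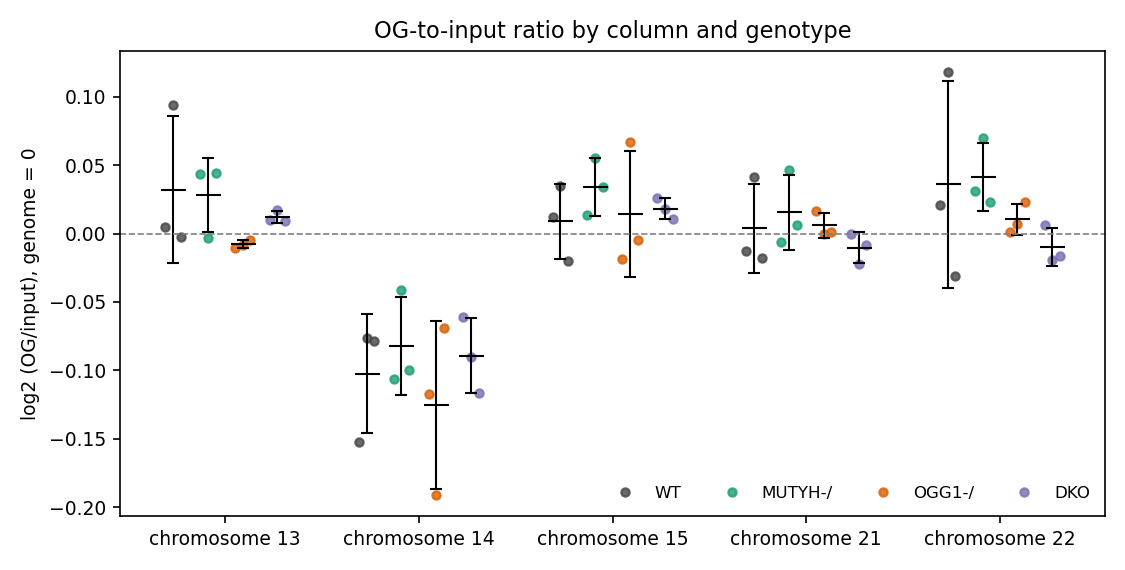
Log2 ratio of recovered OG reads to input reads over each segment, with the genome's ratio at 0 (dashed line). Points are columns, 3 per genotype, and bars are the mean ± SD. All 12 columns of chromosome 14 lie below 0, and the columns of the other 4 segments scatter on both sides of it.

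The 4 genotypes were then compared in each segment, which asks whether loss of the repair enzymes raised OG in these segments more than in the genome as a whole. On chromosome 21, the WT columns were at 1.42, 1.59 and 1.33, the MUTYH-/ columns at 1.42, 1.62 and 1.43, the OGG1-/ columns at 1.52, 1.46 and 1.42 and the DKO columns at 1.50, 1.41 and 1.23. The 4 groups overlapped, and the lowest column, a DKO library, also had the lowest relative input there, 1.26 against 1.39 to 1.51 in the other columns. On chromosome 22 the WT columns, at 1.14, 1.37 and 0.989, held both the highest and the lowest value, and the other 9 columns lay between 1.04 and 1.27. On chromosome 13 WT averaged 1.05 ± 0.126, MUTYH-/ 1.07 ± 0.0582, OGG1-/ 0.979 ± 0.0151 and DKO 0.999 ± 0.0910 (SD, n = 3 each). On chromosome 14 the values were 1.19 ± 0.106, 1.26 ± 0.169, 1.09 ± 0.180 and 1.22 ± 0.0756 in the same order. On chromosome 15 these were 1.06 ± 0.0651, 1.13 ± 0.0471, 1.07 ± 0.121 and 1.08 ± 0.0233.

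No segment differed among genotypes beyond the spread of its columns. Genotype accounted for 15.6% to 22.6% of the variance between columns, and the exact permutation test over the 15400 groupings of 12 columns into 4 groups of 3 gave p from 0.55 to 0.70, all 0.70 after adjustment over the 5 segments. Each knockout against WT had an exact two-sided permutation p from 0.3 to 0.9 in the 15 comparisons, where 3 columns against 3 cannot go below 0.1. The largest of these differences was -0.095 (standard error 0.121) for OGG1-/ on chromosome 14. With columns pooled by enzyme, 6 against 6, the OGG1-deficient minus proficient difference ran from -0.086 to -0.020 over the 5 segments, and with medians over bins it was above 0 on chromosomes 15 and 21, at 0.013 and 0.0016. None of these differences passed (exact permutation test, adjusted p at least 0.75 over 10 comparisons), and the MUTYH differences ran from -0.021 to 0.0997. On the log2 ratio, the OGG1-/ columns of chromosome 13 lay below the WT columns without overlap, by -0.040 (standard error 0.031), at an exact permutation p of 0.1, the smallest possible. The effect of OGG1 loss with and without MUTYH differed by -0.13 to 0.059, with adjusted p of at least 0.91 in an exact permutation test.

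**Figure D2:**
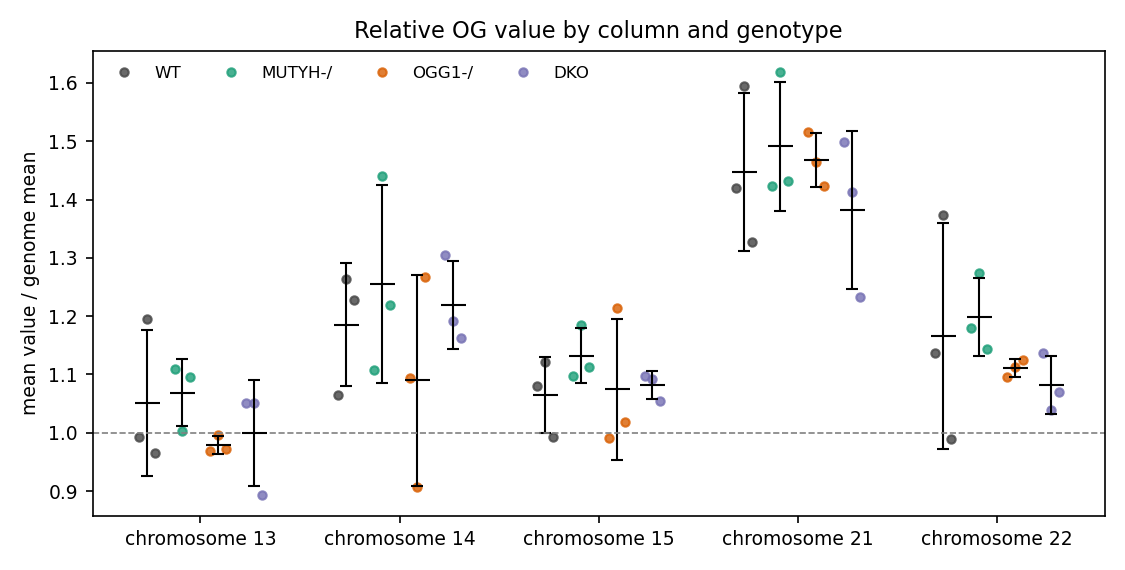
Relative OG value of each segment by column, with the genome's mean at 1 (dashed line). Points are columns, 3 per genotype, and bars are the mean ± SD. Chromosome 21 lies above 1.2 in all columns, and in each segment the 3 knockouts overlap WT.

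The members were also read in 100 kb windows with at least 20 bins, of which there were 73. Their relative OG value ran from 0.173 to 2.79 with a median of 1.04, and 16 of the 73 lay above the 95th percentile of all windows of the genome, 9 of them on chromosome 21. High and low windows formed blocks. On chromosome 21 the highest window, chr21:9000001-9100000, had a relative OG value of 2.79 ± 0.370 (SD, n = 12) and an input of 2.29. It holds no protein-coding gene in GENCODE release 44, and its annotated genes include the pseudogene CDRT15P9 and the non-coding TEKT4P2. The lowest window of that chromosome, chr21:13700001-13800000, was at 0.488 ± 0.108 with an input of 0.411, and it holds MIR8069 and the pseudogenes LONRF2P5, FEM1AP1 and TERF1P1. On chromosome 22 a run of windows rose to 2.50 ± 0.379, with an input of 2.17, at chr22:15700001-15800000. That window contains POTEH, a member of the primate-specific POTE ankyrin family, and the non-coding DUXAP8. The lowest window of all, chr22:11400001-11500000, was at 0.173 ± 0.0704 with an input of 0.132.

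The other 3 segments had a narrower range. On chromosome 13 the highest window, chr13:16200001-16300000, was at 2.46 ± 0.716 with an input of 2.09, and its 26 bins overlapped no annotated gene and held no 31-base word that occurs once in the genome. The lowest window of chromosome 13, chr13:19200001-19300000, was at 0.621 ± 0.114 with an input of 0.912, and it holds the pseudogenes PSPC1P1 and ANKRD26P3. On chromosome 14 the highest window, at 2.10 ± 0.523, held OR11H12, an olfactory receptor gene, and the lowest, at 0.953 ± 0.152, held the olfactory receptor genes OR4K5, OR4K1, OR4K15 and OR4Q2. The highest window of chromosome 15, chr15:22900001-23000000, was at 1.35 ± 0.223 and is occupied by CYFIP1 and TUBGCP5. The lowest, at 0.812 ± 0.133, held the immunoglobulin orphons IGHV1OR15-9 and IGHV3OR15-7, copies of antibody gene segments outside the functional loci.

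**Figure D3:**
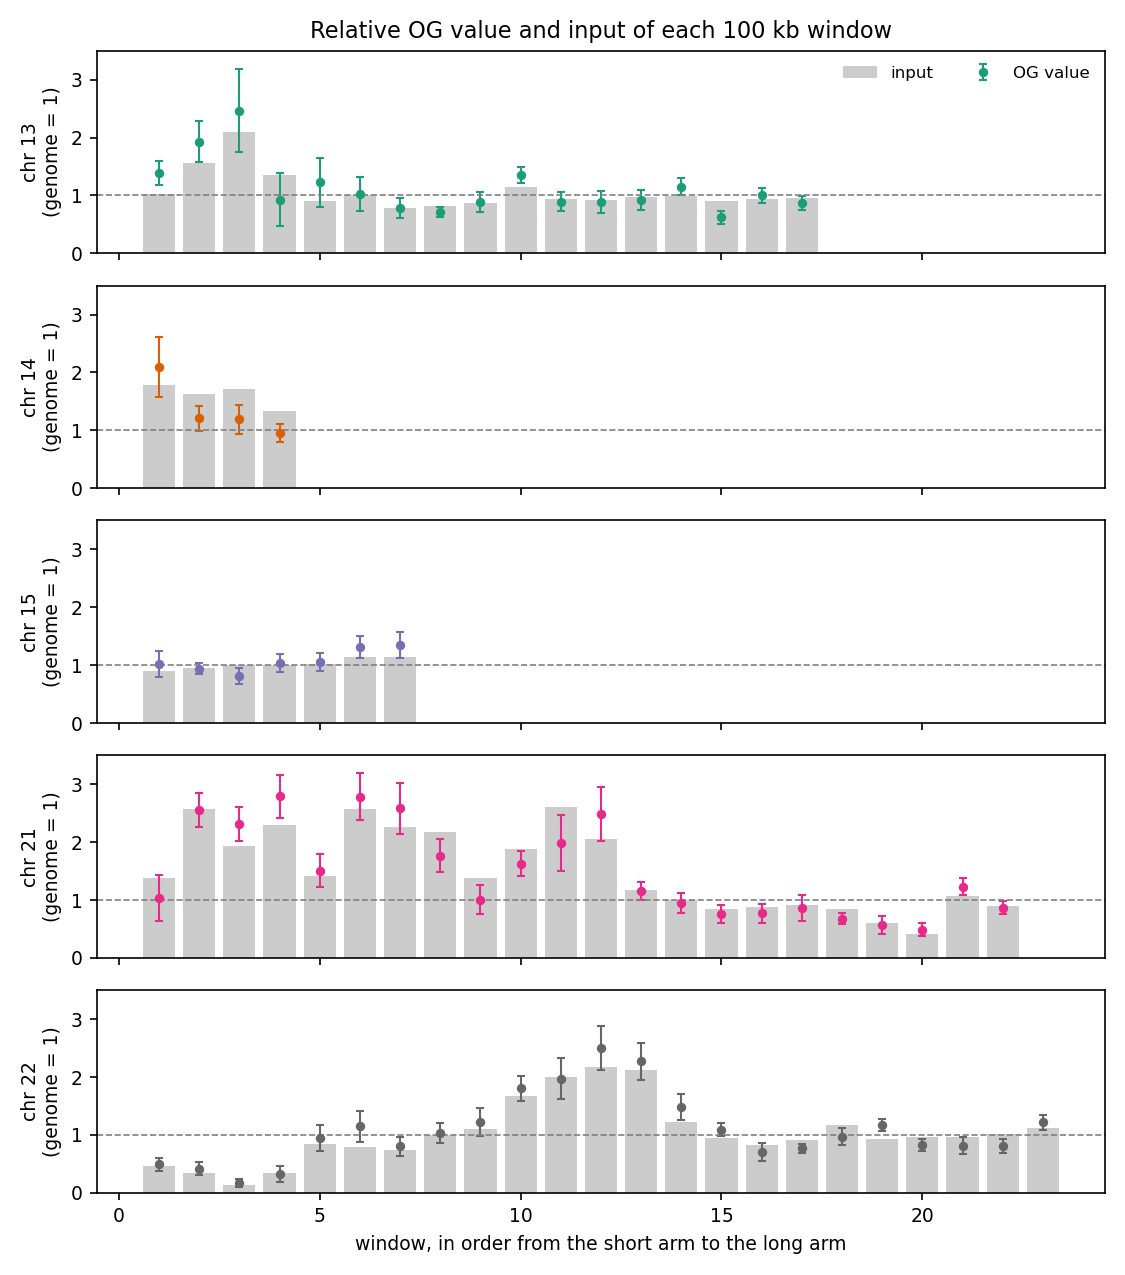
Relative OG value (points, mean ± SD over 12 columns) and relative input (grey bars) of each 100 kb window with at least 20 bins, in order along each segment, with the genome at 1 (dashed line). Points follow the bars through the high blocks of chromosomes 21 and 22, and 3 of the 4 chromosome 14 windows lie well below their bars.

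With all 73 windows pooled, the OG value ran with the input. Pearson's r between relative OG value and relative input was 0.925 and Spearman's rho 0.873, while the OG value and the log2 ratio of OG to input reads gave 0.304 and 0.402. In the 28161 other windows of the genome the OG value followed the ratio more closely, with r of 0.886 and rho of 0.955, and the input with 0.831 and 0.869. The pooled pattern was that of chromosomes 21 and 22, where r was 0.933 and 0.964 with the input and 0.456 and 0.139 with the ratio. On chromosomes 14 and 15, with 4 and 7 windows, r was 0.748 and 0.798 with the input and 0.979 and 0.872 with the ratio. On chromosome 13, r was 0.893 with the input and 0.673 with the ratio, and rho 0.765 and 0.821. These are descriptions across windows that share the same libraries. The log2 ratio of single windows stayed between -0.13 and 0.17 in the segments. Its highest value, 0.17, was in chr22:15100001-15200000, where 19 of 45 bins held the CENP-B box core, and its lowest, -0.13, was in the ANKRD26P3 window of chromosome 13.

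**Figure D4:**
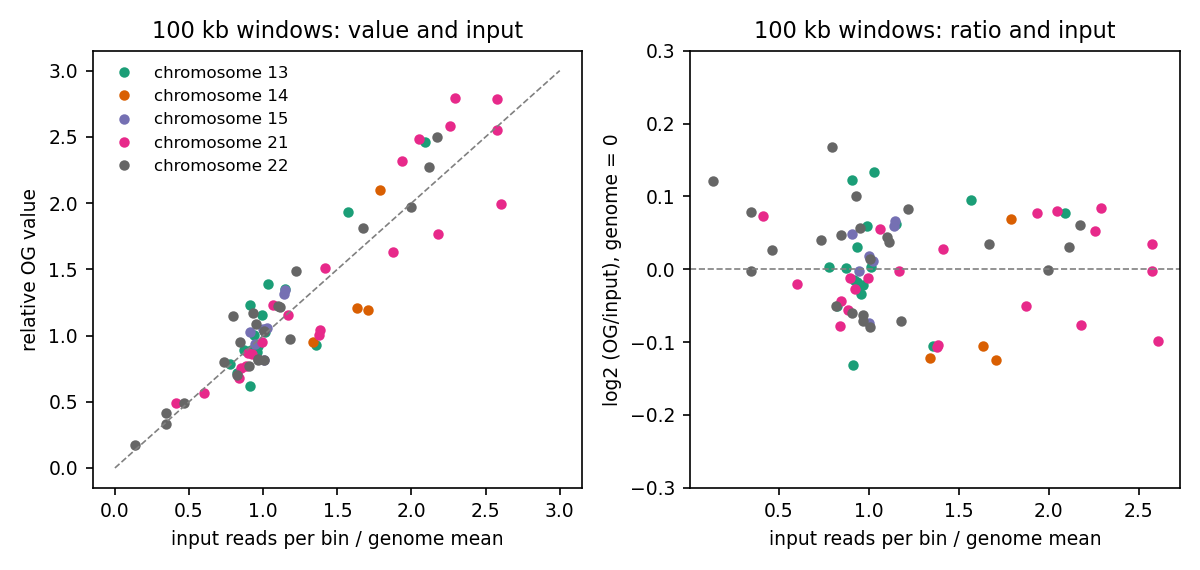
Relative OG value (left) and log2 ratio of OG to input reads (right) of the 73 windows against their relative input, with 1 point per window and 1 colour per chromosome. The dashed lines mark equality on the left and the genome's ratio on the right. OG value rises with input from 0.173 to 2.79, and the ratio stays between -0.13 and 0.17 over the whole range of input.

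Bins with input above 3 times the column median in at least 6 of the 12 columns were 129 of the members (2.07%) and 520 of the other bins (0.0186%). Chromosome 21 held 91 of them, 25 in chr21:9000001-9100000 alone, chromosome 22 held 30, chromosome 13 held 8, and chromosomes 14 and 15 held none. Their relative OG value was 3.81 ± 0.498 (SD, n = 12) and their input 3.62, with a log2 ratio of 0.019. Without them chromosome 21 was at 1.31, still above the rest of the genome in 12 of 12 columns. The log2 ratio of chromosome 21 without them was -0.0011 ± 0.025.

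The OG-to-input ratio of the members changed with base composition in steps close to those elsewhere. Among members of under 35% GC the log2 ratio was -0.14 ± 0.058 (SD, n = 12), against -0.16 in other bins of that GC. It was 0.034 ± 0.028 in members of 40% to 45% GC, against 0.028 elsewhere, and 0.20 ± 0.069 in members of at least 50% GC, against 0.18 elsewhere. Members with the G4 motif were at 0.11 and those without it at -0.0042, and outside the segments the same split gave 0.090 and -0.010. Members with the motif were also richer in GC, at 49.2% against 39.5%. Set against bins of their own GC content, members with the motif had an excess in relative OG value of 0.215, and those without it 0.231. Outside the segments this excess was -0.075 with the motif and 0.0081 without it. The chromosome 14 segment had the lowest GC content, 36.6%, and the lowest ratio. Members with the CENP-B box core had a ratio of 0.14 ± 0.12 at a GC content of 37.9%, and the 1523 other bins with the core had 0.13 ± 0.045 at 44.5%. By uniqueness, members with at most 10% unique words had a relative OG value of 1.31 and a log2 ratio of 0.047, and those with over 90% had 1.09 and -0.024. In sampled bins elsewhere the same 2 bands were at 0.977 and -0.035, over 87 bins, and at 0.947 and -0.017. What part repeated sequence played in these values was not tested.

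Some genes of the segments belong to the duplicated families and groups described here, and most do not. Olfactory receptor genes and pseudogenes, which encode odorant receptors, had bins for 18 of 39 annotated. They had a relative OG value of 1.17 ± 0.182 (SD, n = 12), an input of 1.63 and a log2 ratio of -0.12, which was below 0 in every column. OR4N2, with 106 bins, was at 1.14 ± 0.207 and OR4M1, with 11, at 1.42 ± 0.556. TPTE encodes a testis-expressed phosphatase-like protein, and the TPTE and BAGE group had bins for all 5 annotated entries. TPTE itself on chromosome 21 was at 1.76 ± 0.281 with an input of 2.03, whereas TPTE2 on chromosome 13 was at 0.841 ± 0.129 with an input of 0.949 and TPTEP1 on chromosome 22 at 0.815 ± 0.108 with an input of 0.965. The POTE genes were split in the same way. POTEH on chromosome 22 was at 2.28 ± 0.441 with an input of 2.19, and POTED on chromosome 21 at 0.580 ± 0.230 with an input of 0.622. Within both families the levels followed the input, and the log2 ratio of the genes named lay between -0.064 and 0.019.

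The ankyrin repeat duplications, copies of ANKRD20A, ANKRD26 and ANKRD30B, had the lowest level of these gene groups, 0.759 ± 0.132 over 285 bins, and 1 of their 6 entries was above 1. ANKRD20A11P was at 0.781 ± 0.175 and ANKRD20A9P at 0.807 ± 0.237. The single-copy genes of 15q11.2, between the recurrent breakpoints of proximal chromosome 15, were at 1.33 ± 0.156, and all 4 were above 1. CYFIP1, which encodes a regulator of actin assembly and translation, was at 1.36 ± 0.169, NIPA1, a magnesium transporter gene, at 1.35 ± 0.124, TUBGCP5, a gamma-tubulin complex subunit, at 1.29 ± 0.638, and NIPA2 at 1.18 ± 0.350. Their bins had 78.3% unique words, 47.4% GC, an input of 1.14 and a log2 ratio of 0.063. Bins outside the segments of 45% to 50% GC were higher, at a relative OG value of 1.42 and a log2 ratio of 0.10. The highest bin of the chromosome 15 segment, chr15:22932001-22933000, lay inside CYFIP1 at a relative OG value of 2.77. Of the further coding genes, TUBA3C, an alpha-tubulin gene, was at 1.66 ± 0.401, CCT8L2 at 1.77 ± 0.908, GAB4 at 1.15 ± 0.243 and XKR3 at 0.633 ± 0.174. The golgin pseudogene GOLGA8IP was at 1.42 ± 0.399 over 11 bins. Immunoglobulin orphons, with bins for 11 of 24, ranged from 0.740 to 4.80 over 17 bins in all. IGHV1OR15-2, over 2 bins, was at 1.47 ± 1.12, and IGHV1OR21-1, over 1 bin, at 4.80 ± 1.82, the highest of them.

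No annotated ribosomal RNA gene could be compared, since the 3 RNA5-8S genes annotated on chromosome 21 lay in no member bin. Ribosomal DNA without an annotation was not searched for, so members may hold such sequence, the bin described next included. The bin chr21:8988001-8989000, 58.3% GC and the one with the G4 stretch shown above, had the highest value of any member, at 23.7 times the genome mean with an input of 11.4 times. The scores of the WT columns were 259, 273 and 245, of MUTYH-/ 248, 161 and 182, of OGG1-/ 243, 216 and 274, and of DKO 96.1, 87.0 and 122. On these scores, which were not scaled for column depth, DKO lay below all other columns, and MUTYH-/ and OGG1-/ overlapped WT. OG reads in the bin, relative to each column's mean, did not overlap, at 16.9 to 22.8 in WT and 6.65 to 15.4 in the knockouts. Relative input reads were 12.3 to 16.1 in WT, 9.11 to 11.8 in MUTYH-/ and OGG1-/ together and 4.72 to 13.3 in DKO. On the log2 ratio of OG to input reads the WT columns were at 0.62, 0.50 and 0.47 and the DKO columns at -0.037, -0.10 and 0.49, so that 1 DKO column lay within the WT range. That column had 166 input reads in the bin, against 440 and 463 in the other DKO columns. An exact permutation test of 3 columns against 3 cannot go below p = 0.1 here.

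Coverage of GC-rich DNA outside the segments was also compared. In bins outside the segments of 55% to 60% GC, the range that holds this bin, input reads were 1.20 to 1.22 times the genome mean in the 3 WT columns and 1.06 to 1.18 times in the 9 knockout columns, whereas OG reads overlapped, at 1.34 to 1.38 times and 1.18 to 1.39 times. In the 185 such bins of at least 80% GC, input reads were 0.142 to 0.251 times in WT and 0.0232 to 0.0588 times in the knockouts, and OG reads 0.330 to 0.450 times and 0.0303 to 0.0854 times. In bins of 40% to 45% GC, WT and knockout input overlapped, at 1.05 to 1.06 and 1.04 to 1.06. Coverage of GC-rich DNA, genotype and library preparation cannot be told apart in these columns.

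The other high bins differed in base composition. In chr21:9819001-9820000, inside the pseudogene LINC01667 and 60.8% GC, the score was 9.40 times the genome mean. Its WT columns were at 45.3, 105 and 78.7, its DKO columns at 96.6, 118 and 0.643, and a single DKO column stood apart. The highest bin of chromosome 22, shown above, was 59.9% GC and at 7.62 times the genome mean with an input of 3.95. That of chromosome 13, at 37.8% GC, was at 5.66 with an input of 4.21, and that of chromosome 14, at 43.6% GC, at 3.51 with an input of 1.81.

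Fits across the whole genome found no window of the segments that differed. With limma on the relative value of 28234 windows of 100 kb and Benjamini-Hochberg adjustment, 0 of 73 member windows passed an adjusted p of 0.05 in any knockout against WT. The background was 0% of all windows for MUTYH-/, 0% for OGG1-/ and 0.0106% for DKO. At an unadjusted limma p under 0.05 MUTYH-/ had 5 member windows, OGG1-/ had 3 and DKO had 7, against 3.35%, 4.58% and 4.65% of all windows.

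In 1 kb bins, differentially enriched regions (OG-DERs) were called where the unadjusted limma p was no higher than 0.01 and the fold change exceeded 0.5 on the log2 scale, on scaled scores with values below 0 set to 0 and a pseudocount of 1. Of 6218 members tested, MUTYH-/ had 36 gained and 32 lost against WT, with backgrounds of 0.3% and 0.322% of all 2802495 bins. OGG1-/ had 36 gained and 29 lost, with backgrounds of 0.299% and 0.256%. DKO had 32 gained and 37 lost, with backgrounds of 0.296% and 0.312%. The members' shares in both directions together were 1.09%, 1.05% and 1.11%, and without the bins of high input 0.788%, 0.903% and 0.870%. The shares over all bins were 0.622%, 0.555% and 0.609%, and with no filter on low values the members' 1.09%, 1.01% and 1.14% stood beside 1.07%, 0.967% and 1.04% of all bins. Chromosome 21 held 40 of the 68 MUTYH-/ calls, 36 of the 65 OGG1-/ calls and 35 of the 69 DKO calls, and chromosome 13 held 4, 6 and 6. The split between gains and losses depended on scaling: with the columns not scaled, MUTYH-/ had 50 gained and 17 lost, OGG1-/ 58 and 13, and DKO 53 and 20. After adjustment MUTYH-/ kept 1 member, OGG1-/ kept 1 and DKO kept 2, all losses, against 0.00050%, 0.00025% and 0.0014% of all bins, and they were the bins chr21:8988001-8989000 in each and chr21:9819001-9820000 in DKO. That fit gave every bin the spread of the genome-wide trend and not its own. The overlap of OGG1-/ with WT in chr21:8988001-8989000 was seen on scores not scaled for column depth, whereas the fit used scaled scores. OG reads relative to each column's mean did not overlap there between OGG1-/ and WT.

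OG-enriched bins (OG-EBs) were the bins whose score reached the 95th percentile in 2 or more of a genotype's 3 columns. WT had 324 of them among the 6224 members (5.21%), MUTYH-/ had 339 (5.45%), OGG1-/ 324 (5.21%) and DKO 298 (4.79%). The backgrounds over all bins were 1.34%, 1.33%, 1.54% and 1.3%. The share was highest on chromosome 21, from 9.39% in DKO to 10.8% in OGG1-/, and lowest on chromosome 15, from 0.794% in OGG1-/ to 1.59% in MUTYH-/. Ranked by OG reads per input read in place of the score, 1.37% to 1.54% of members were OG-EBs, against 0.863% to 0.944% of all bins. By column, 7.66% to 10.8% of members lay in the top score range, and this share did not separate the genotypes (exact permutation test, p = 0.69). On chromosome 14 WT stood at 9.25% ± 0.386, MUTYH-/ at 11.4% ± 0.669, OGG1-/ at 8.70% ± 1.86 and DKO at 11.1% ± 0.511 (SD, n = 3 each), with an exact permutation p of 0.042 and 0.21 after adjustment over the 5 segments.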

How the data were processed

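The authors trimmed reads with cutadapt 2.8, aligned them to GRCh38 with Bowtie2 2.3.5.1 and marked duplicates, and they counted reads in 1 kb bins of chromosomes 1 to 22 and X. The deposited score of a bin is OG reads minus input reads scaled by signal extraction scaling, on a linear scale. The default alignment places a read with several equal matches at 1 of them, and blacklisted and incomplete bins had been removed. OG and input reads were recovered as the whole numbers that give each score. The authors used edgeR 3.42.4 on such values, which was not done here because they are not counts. Segments were compared with exact permutation tests over columns, and windows and bins with limma 3.58.1 (R 4.3.3). On simulated data, 91.5% to 97% of 200 windows with 1.3 times the OG reads in the knockouts were recovered among 28234. Such a rise in reads moves the relative OG value by more, because input is subtracted. The simulated windows came from the whole genome, with a set spread between columns that was not fitted to these data. The check therefore does not give the reach for a 1.3-fold change in relative OG value, nor the reach in the member windows. Bins tested were above 0 in at least 3 columns. The members, gene groups and tests were chosen with earlier results of these data known. Text names the highest and lowest window and the highest bin of each segment, and 2 to 4 genes with most bins in each group. The bin chr21:9819001-9820000 and single genes beside these were named after their values were seen. Genes came from GENCODE release 44 on GRCh38, and sequence from the same assembly. Alternatives changed the bin summary, the divisor, filters, base composition, thresholds, scaling, pseudocount and columns, with 4 of them chosen after the data were seen: bins with over 90% unique words, log2 ratio without high-input bins, bins under 60% GC and calls without high-input bins. No column was left unused, and 1 locus is not reported here.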

Additional observations from a re-analysis of the deposited data

How the results depend on the processing

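No segment passed the test among genotypes under any of 78 alternatives (lowest adjusted p 0.44, exact permutation test), and with 2 columns per genotype that test has little reach. Whether column numbers pair the columns is not known. Correlations of same-numbered columns ran from -0.61 to 0.97 with a median of -0.099, and 5 segments are too few points to decide it. With the replicate block the exact permutation p of the segments was 0.44 to 0.72. Against the rest of the genome, chromosome 22 was at -0.0016 with medians over bins and lost its call, and on the log2 ratio chromosome 14 was at -0.10, chromosome 15 at 0.019, chromosome 21 at 0.0038, chromosome 22 at 0.020 and all members at 0.0060. Within GC strata chromosome 15 was at 0.022. Leaving out 1 column number moved these differences between 0.0064 and 0.046 for chromosome 13, 0.17 and 0.21 for chromosome 14, 0.056 and 0.11 for chromosome 15, 0.41 and 0.49 for chromosome 21, and 0.11 and 0.17 for chromosome 22. Differences from WT that had not passed changed sign under single settings. With medians DKO on chromosome 21 was at 0.049. Without high-input bins OGG1-/ on chromosome 21 was at -0.0097. On the log2 ratio MUTYH-/ on chromosome 13 was at -0.0039, in GC strata OGG1-/ on chromosome 15 was at -0.0049, and with negative scores set to 0 DKO on chromosome 15 was at -0.0030. By enzyme, OGG1-deficient minus proficient columns were at 0.013 on chromosome 15 and 0.0016 on chromosome 21 with medians, and MUTYH-deficient minus proficient columns at 0.047 on chromosome 21 with medians, 0.011 there without high-input bins and -0.0074 on chromosome 22 on the log2 ratio. Leaving out 1 column number, MUTYH-/ minus WT ran from -0.038 to 0.12 on chromosome 13, from -0.028 to 0.099 on chromosome 22 and from -0.0046 to 0.084 over all members. OGG1-/ minus WT ran from -0.16 to 0.035 on chromosome 14, -0.032 to 0.059 on chromosome 15, -0.017 to 0.096 on chromosome 21, -0.15 to 0.047 on chromosome 22 and -0.088 to 0.040 over all members, and DKO minus WT from -0.069 to 0.087 on chromosome 14, -0.0055 to 0.039 on chromosome 15, -0.17 to 0.040 on chromosome 22 and -0.11 to 0.018 over all members. Member windows called by limma were 1 for DKO with no minimum of bins and 0 to 1 for MUTYH-/ and OGG1-/ when 1 column number was left out. OG-DERs among the members were 1 in MUTYH-/, 1 in OGG1-/ and 2 in DKO at an adjusted limma p under 0.05, and 63 to 88, 71 to 82 and 78 to 96 when 1 column number was left out. Members that were OG-EBs were 1.67%, 1.80%, 1.91% and 1.69% in WT, MUTYH-/, OGG1-/ and DKO at the 99th percentile, 1.16%, 1.32%, 1.35% and 0.787% with all 3 columns required, 1.37%, 1.54%, 1.40% and 1.43% by the log2 ratio, and 5.61% in OGG1-/ within GC strata. The cause of these changes was not tested. The alternatives fixed for ribosomal RNA gene bins were not run, because no member covers such an annotated gene. At 27.7 to 35.8 input reads per bin, single bins are imprecise, and bins of repeated sequence cannot be placed with certainty.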
